A study of Mus musculus with 4 samples.

Results

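The complement members followed here are 9 genes of the classical and alternative complement pathways, chosen by name among 53465 genes in the files: C1qa, C1qb, C1qc, C2, C3, C4b, Cfb, Serping1 and C3ar1. RNA-Seq was available from 1° mouse OGCs (oligodendroglial cells from forebrain, isolated at P2 to P4) that had differentiated for 3 days in culture. The 2 ctrl libraries were from Zfp276 flox/flox mice and the 2 Zfp276cko libraries from Sox10::Cre tg; Zfp276 flox/flox mice, with each preparation pooled from 3 mice. By the study's methods, the mice were of both sexes on a background mixed from C3H and C57Bl/6J, and a Rosa26 reporter allele (stopflox tdTomato) had been crossed in to tell Zfp276cko newborns apart. Sox10::Cre is a BAC transgene active in the oligodendroglial lineage. OGCs were shaken off mixed glial cultures, depleted of microglia, and differentiated with CNTF in place of mitogens. Ctrl cells carried the floxed allele without Cre, so an effect of Cre itself and of the deletion cannot be told apart. The study's question was which transcripts differ once OGCs lack Zfp276, a zinc finger protein.

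Counted reads per library ranged from 21068322 to 26599809. Zfp276 had 1648 and 2230 normalized counts in the ctrl libraries and 490 and 503 in the Zfp276cko libraries, so that 25.6% of the ctrl mean was left (log2 fold change -1.97, SE 0.18, adjusted p = 0.0962 in edgeR's quasi-likelihood test, which does not pass, and 1.16e-14 in DESeq2). Normalized counts are read counts scaled to a common library size. The libraries did not vary alike: among 14324 tested genes with a mean of at least 20 normalized counts, the ctrl replicates were at least 2-fold apart for 12.8% and the Zfp276cko replicates for 0.335%. Ctrl replicate 1 was at least 4-fold above ctrl replicate 2 for 2.29% of these genes, so results for the members are given with and without each ctrl library. Across all 15766 tested genes, the quasi-likelihood test of edgeR (Benjamini-Hochberg adjustment) called none (0%), and the smallest adjusted p was 0.0725. Without the adjustment, 5.11% of genes were higher and 3.02% lower at p up to 0.05, counting those that changed by 0.6 or more on the log2 scale and reached the mean of 20. DESeq2, the tool of the study, called 3.05% of 14754 genes higher and 2.30% lower at an adjusted p of at most 0.05 and the same limits.

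Complement is a cascade of plasma and tissue proteins that tags cells and debris for uptake. In the classical pathway C1q, built from the chains encoded by C1qa, C1qb and C1qc, binds its targets and activates the proteases C1r and C1s. C1s cuts C4 and C2 to form an enzyme that cleaves C3, the central component. The alternative pathway forms a second C3-cleaving enzyme with factor B (Cfb), the receptor C3ar1 binds the C3a fragment, and Serping1 encodes the inhibitor of the C1 proteases. In the brain, microglia are the main source of C1q and express C3ar1, and complement takes part in the removal of synapses.

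The reference held the sequence before the start site for 4 of the 9 members: C1qb, C1qc, C3 and C3ar1. The sequences of C3ar1 and C3 are shown because the receptor and its precursor ligand differed in pattern below. They are the 250 bases upstream of each RefSeq start (GRCm38.p6, minus strand, written 5′ to 3′ in the direction of transcription), at chr6:122856158-122856407 for C3ar1 and chr17:57228137-57228386 for C3. Capitals mark the one match to a searched motif.
C3ar1 promoter: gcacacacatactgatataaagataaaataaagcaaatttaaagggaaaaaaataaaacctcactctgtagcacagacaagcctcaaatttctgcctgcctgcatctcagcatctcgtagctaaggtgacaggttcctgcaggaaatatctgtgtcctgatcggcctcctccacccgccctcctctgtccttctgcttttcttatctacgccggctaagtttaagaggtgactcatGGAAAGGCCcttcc
C3 promoter: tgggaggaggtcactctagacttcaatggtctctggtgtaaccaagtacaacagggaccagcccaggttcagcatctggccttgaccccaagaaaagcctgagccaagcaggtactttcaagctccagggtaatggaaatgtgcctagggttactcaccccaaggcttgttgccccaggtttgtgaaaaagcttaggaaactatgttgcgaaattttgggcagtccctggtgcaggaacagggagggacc
Both strands were searched for GAAANNGAA (the core of interferon-responsive elements) and GGNNTTTCC (a core of kappaB sites). Of 32851 promoters of this length, 7.13% and 4.93% held them. Among the 4 members, only C3ar1 had a match, to the kappaB core on the opposite strand, starting 14 bases before the transcription start. A match of these letters is no evidence of binding, and the lack of one says only that the letters are not in this window.

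The 3 C1q chains were abundant in all 4 libraries and did not separate the genotypes. C1qa had 10389 and 4375 normalized counts in ctrl and 4513 and 5847 in Zfp276cko. C1qb had 8575 and 5425 in ctrl and 8333 and 8191 in Zfp276cko. C1qc had 8729 and 4123 in ctrl and 6568 and 6973 in Zfp276cko. For each chain, ctrl replicate 1 was the highest library and ctrl replicate 2 the lowest, with both Zfp276cko libraries between them. The log2 fold change, Zfp276cko over ctrl, was -0.51 (SE 0.45) for C1qa, 0.24 (SE 0.25) for C1qb and 0.075 (SE 0.38) for C1qc. The adjusted p in edgeR's quasi-likelihood test was 0.638, 0.690 and 0.946. The difference was about the size of its standard error for C1qa and C1qb and smaller than it for C1qc. This leaves a difference of either sign possible in each chain. All 3 genes lie next to each other on the minus strand of chromosome 4 (mm10), C1qb at chr4:136880129-136886187, C1qc at chr4:136889804-136893065 and C1qa at chr4:136895917-136898803.

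**Figure D1:**
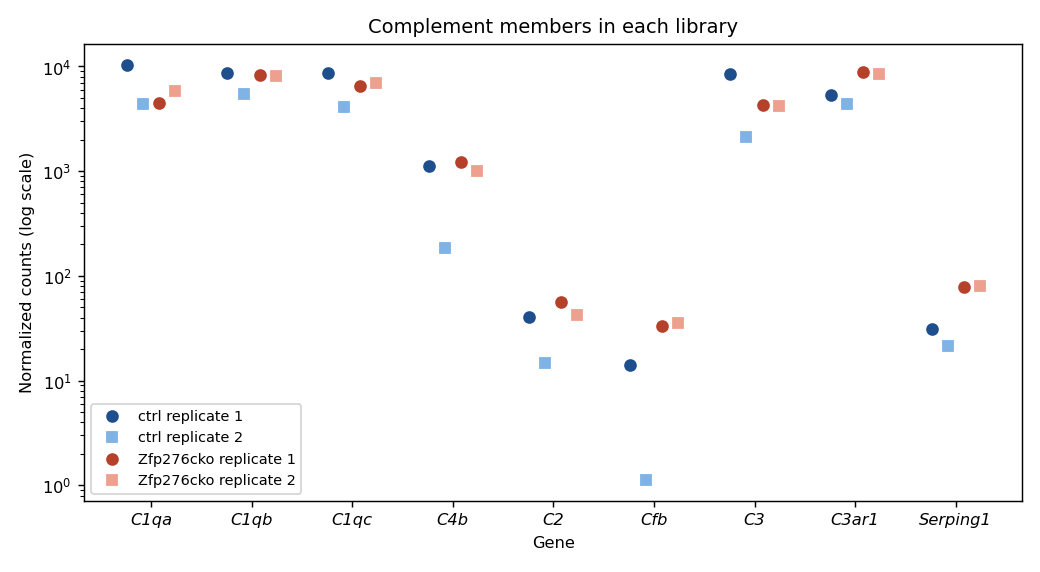
Normalized counts (log scale) of the 9 complement members in each of the 4 libraries, 1 point per library, with ctrl in blue and Zfp276cko in red. The red points sit above both blue points for C2, Cfb, C3ar1 and Serping1, and between or among the blue points for C1qa, C1qb, C1qc, C4b and C3.

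The chains, which assemble in equal number, did not keep a fixed ratio of counts. C1qa over C1qb was 1.21 and 0.806 in ctrl and 0.542 and 0.714 in Zfp276cko, where it was lower without overlap. C1qc over C1qb was 1.02, 0.760, 0.788 and 0.851 in the same order and overlapped between genotypes. C1qa also differed between the Zfp276cko replicates, by 1.30-fold, a feature singled out after its values were seen. Of 5712 genes with a mean of at least 1000 normalized counts, only 10, C1qa included, were at least this far apart, against a median of 1.04-fold. C1qb and C1qc were 0.983-fold and 1.06-fold in the same comparison. A two-sided exact permutation test of 2 against 2 libraries cannot go below p = 0.33, and no other test was run on these ratios.

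The summed level of the 19 listed microglia markers, of which 17 had a mean of at least 20 counts, was 77492 and 51443 normalized counts in ctrl and 61598 and 61608 in Zfp276cko. The C1q chains together amounted to 35.7 and 27.1 counts per 100 of these marker counts in ctrl and to 31.5 and 34.1 in Zfp276cko. This overlap depended on 1 marker, Fcrls, which had 12725 and 18324 normalized counts in ctrl and 6568 and 6761 in Zfp276cko. With Fcrls left out of the sum, a choice made after its values were seen, the C1q chains were at 42.8 and 42.0 per 100 marker counts in ctrl and at 35.3 and 38.3 in Zfp276cko, lower without overlap. In these bulk libraries, more microglia and more C1q RNA per microglia cannot be told apart.

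C4b, which encodes the C4 protein cut by C1s, varied more between the ctrl replicates than between genotypes. It had 1133 and 187 normalized counts in ctrl and 1238 and 1009 in Zfp276cko. Ctrl replicate 1 lay between the Zfp276cko libraries, and ctrl replicate 2 stood 6.06-fold below the other ctrl library. The log2 fold change was 0.77 (SE 0.84, adjusted p = 0.712 in edgeR's quasi-likelihood test). It came to 2.59 when ctrl replicate 1 was left out and to -0.026 when ctrl replicate 2 was, so that the choice of ctrl library set its size and sign. C4b lies at chr17:34728380-34743882, and 15.0% of the stretches of read length (101 bases) in its transcripts are identical in the paralog C4a, so part of their reads cannot be assigned uniquely. C4a had 93.8 and 74.3 normalized counts in ctrl and 52.5 and 60.1 in Zfp276cko, lower in Zfp276cko without overlap (log2 fold change -0.58, SE 0.27, adjusted p = 0.405 by the same test). The C4b to C4a ratio was 12.1 and 2.52 in ctrl and 23.6 and 16.8 in Zfp276cko, without overlap. C4b alone overlapped between genotypes, C4a rests on 58 to 79 reads per library, and no test was run on this ratio.

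C2 and Cfb, the protease subunits of the classical and alternative C3 convertases, were low, and both Zfp276cko libraries exceeded both ctrl libraries. C2 had 40.4 and 14.6 normalized counts in ctrl and 56.1 and 42.1 in Zfp276cko, where the nearest libraries of the genotypes were almost level. Its log2 fold change was 0.84 (SE 0.56, adjusted p = 0.535 in edgeR's quasi-likelihood test), 1.74 without ctrl replicate 1 and 0.26 without ctrl replicate 2. Cfb had 14.2 and 1.13 normalized counts in ctrl, from 12 and 1 reads, and 33.5 and 35.2 in Zfp276cko, from 37 and 41 reads. The higher ctrl library was 2.41-fold below the Zfp276cko mean. The log2 fold change of Cfb was 2.16 (SE 0.92, adjusted p = 0.367 by the same test), 4.79 without ctrl replicate 1 and 1.25 without ctrl replicate 2, and the first of these rests on 1 ctrl read.

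Cfb (chr17:34856374-34862518) and C2 (chr17:34862604-34898265) are adjacent on the minus strand, in the same cluster as C4b. A readthrough gene model on the same strand, Gm20547, covers 79.5% of the exon bases of Cfb and 42.8% of those of C2 and was listed at 0 in all 4 libraries. Of the read-length stretches of Cfb 66.8% occur in Gm20547 too, and of those of C2 35.4%, so counts of both genes are uncertain where reads matching more than 1 gene were dropped. Other protein-coding genes within 50 kb of C2, Cfb and C4b differed less between genotypes. Of 10 listed, 7 had a mean of at least 20 counts. Among these, 2 were higher in Zfp276cko without overlap, Dxo and Neu1, by 0.28 and 0.31 on the log2 scale. Of all genes with a mean of at least 20, 26.4% were higher without overlap, so the 2 are near the general share. The 7 ranged from -0.17 to 0.31, with a median of 0.12. C4a also lies in this stretch, but the annotation types it as a processed transcript, so its value of -0.58 is not among the 7.

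C3 and its receptor differed in pattern. C3, the component on which all pathways meet, had 8391 and 2112 normalized counts in ctrl and 4294 and 4157 in Zfp276cko. The Zfp276cko libraries lay between the ctrl libraries, which were 3.97-fold apart. Its log2 fold change was -0.31 (SE 0.67, adjusted p = 0.859 in edgeR's quasi-likelihood test), and leaving out ctrl replicate 1 gave 1.0, leaving out ctrl replicate 2 gave -1.0. The spread between ctrl libraries thus exceeded any genotype difference in C3. C3 lies at chr17:57203970-57228136, apart from the C2, Cfb and C4b cluster.

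C3ar1, the receptor for C3a, had the smallest p among the members. It had 5356 and 4411 normalized counts in ctrl (mean 4884 ± 668, SD, n = 2) and 8843 and 8560 in Zfp276cko (mean 8701 ± 200.5, SD, n = 2). Both Zfp276cko libraries were above both ctrl libraries, and the Zfp276cko mean was 1.63-fold the higher ctrl library. The log2 fold change was 0.83 (SE 0.14), or 1.78-fold. The adjusted p was 0.139 in edgeR's quasi-likelihood test, which does not pass, and 0.000447 in DESeq2, which does. Leaving out ctrl replicate 1 gave a log2 fold change of 0.98, and leaving out ctrl replicate 2 gave 0.69. C3ar1 lies at chr6:122847138-122856161.

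The C3ar1 level was also set against the microglia markers. Per 100 marker counts there were 6.91 and 8.57 C3ar1 counts in ctrl and 14.4 and 13.9 in Zfp276cko, without overlap. With Fcrls left out, C3ar1 came to 8.27 and 13.3 in ctrl and to 16.1 and 15.6 in Zfp276cko, still without overlap but with ctrl replicate 2 close to the Zfp276cko libraries. C3 by the same measure was at 10.8 and 4.11 in ctrl and 6.97 and 6.75 in Zfp276cko, where the genotypes overlapped. The ratio of C3 to C3ar1 was 1.57 in ctrl replicate 1 but 0.479 in ctrl replicate 2 and 0.486 in both Zfp276cko libraries, a comparison chosen after the values were seen. Other genes of the microglia list differed between genotypes by about as much as C3ar1. Cd68, a lysosomal protein, had 3808 and 2233 normalized counts in ctrl and 6142 and 5830 in Zfp276cko, and Ptprc, which encodes CD45, had 3018 and 3101 against 5092 and 5264. DESeq2 called both higher and Fcrls lower (adjusted p = 0.0286, 1.07e-05 and 1.18e-05), and edgeR's quasi-likelihood test called none of them (adjusted p = 0.241, 0.117 and 0.148). Cx3cr1, the fractalkine receptor, had 2290 and 2369 normalized counts in ctrl and 3095 and 2966 in Zfp276cko, without overlap. P2ry12 had 151 and 19.1 in ctrl and 55.2 and 84.2 in Zfp276cko, and Tmem119 had 418 and 293 against 392 and 391, both with overlap. Of the 17 microglia markers, 5 were higher in Zfp276cko without overlap, 1 was lower and 11 overlapped, and Siglech and Gpr34 were at 0 in every library. Of all genes with a mean of at least 20, 26.4% were higher without overlap and 24.8% lower, so the 5 are near the general share. The part of microglial content in the C3ar1 difference was not tested.

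Serping1, which encodes C1 inhibitor, the serpin that blocks C1r and C1s, had the largest fold difference among members with at least 10 reads in every library. It had 30.9 and 21.4 normalized counts in ctrl (mean 26.1 ± 6.71, SD, n = 2) and 78.7 and 80.8 in Zfp276cko (mean 79.7 ± 1.44, SD, n = 2). Both Zfp276cko libraries were above both ctrl libraries, and their mean was 2.58-fold the higher ctrl library. The log2 fold change was 1.61 (SE 0.32), or 3.05-fold. The adjusted p was 0.168 in edgeR's quasi-likelihood test and 0.0417 in DESeq2, so that it passed in the latter. The fold change came to 1.89 on the log2 scale when ctrl replicate 1 was left out and to 1.35 when ctrl replicate 2 was. Serping1 lies at chr2:84765387-84775444.

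Of the genes of the C1 proteases, C1ra and C1s1 had the same split between genotypes as Serping1. C1ra, a C1r gene, had 48.7 and 29.3 normalized counts in ctrl and 110 and 125 in Zfp276cko, and C1s1, a C1s gene, had 43.9 and 28.1 against 112 and 124. In both, the genotypes did not overlap and Zfp276cko was the higher. The log2 fold change was 1.60 (SE 0.35) for C1ra and 1.71 (SE 0.33) for C1s1. The adjusted p was 0.183 and 0.162 in edgeR's quasi-likelihood test and 0.0232 and 0.00908 in DESeq2. Serping1, C1ra and C1s1 therefore had genotype differences of 1.60 to 1.71 on the log2 scale, whereas the 3 chains of C1q, the other part of the C1 complex, had -0.51 to 0.24, and the difference between these changes was not tested.

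**Figure D2:**
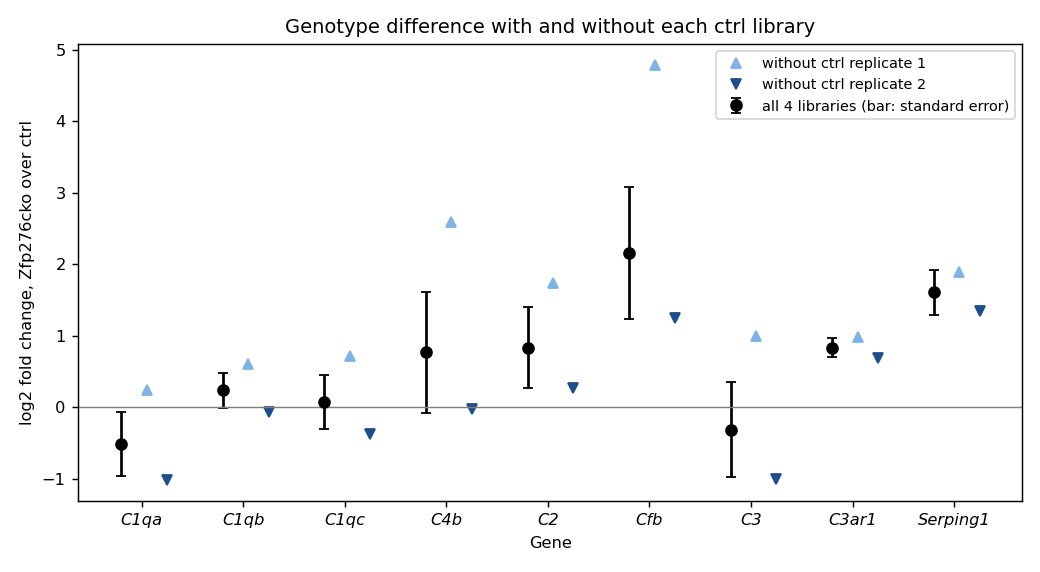
Log2 fold change (Zfp276cko over ctrl) of each member in the fit of all 4 libraries (black, bar: standard error) and in the fits without ctrl replicate 1 (light triangles) and without ctrl replicate 2 (dark triangles). C3ar1 runs from 0.69 to 0.98 and Serping1 from 1.35 to 1.89, while C4b runs from -0.026 to 2.59 and C3 from -1.0 to 1.0.

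Counted together, 0 of the 9 members were called by edgeR's quasi-likelihood test with adjustment, against 0% of all tested genes. DESeq2 called 2 higher (Serping1 and C3ar1) and 0 lower, beside its 3.05% of genes higher. The same 2 passed the unadjusted p of edgeR, beside 5.11% of genes, and edgeR's exact test, which called 2.58% of genes higher and 1.67% lower. Both Zfp276cko libraries were above both ctrl libraries for 4 members (C2, Cfb, Serping1 and C3ar1), where 26.4% of all genes with a mean of at least 20 were, and no member was below both, where 24.8% were. Cfb reached the mean of 20 only through Zfp276cko (mean 7.69 in ctrl and 34.4 in Zfp276cko), so the filter favoured its place among the 4. The median log2 fold change of the members was 0.77, against -0.0013 for all tested genes, but it came to 1.0 when ctrl replicate 1 was left out and to -0.026 when ctrl replicate 2 was.

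The ctrl libraries moved these counts in opposite ways. All 9 members were higher in ctrl replicate 1 than in ctrl replicate 2, by a median of 2.37-fold. Without ctrl replicate 1, edgeR's quasi-likelihood test called 8 members higher, all but C1qa, where 10.2% of genes were called higher and 5.76% lower. Without ctrl replicate 2, it called 3 members higher (Cfb, Serping1 and C3ar1) and 2 lower (C1qa and C3), where 10.8% of genes were called higher and 7.77% lower. In each of these fits the single ctrl library left is assumed to vary like the Zfp276cko pair, whose replicates were far closer than the ctrl pair. C2, Cfb, Serping1 and C3ar1 had a positive log2 fold change in both fits, which share the same Zfp276cko libraries. For Cfb, the fit without ctrl replicate 1 rests on 1 ctrl read. The share of all genes called higher in both fits was not computed, so the overlap of the calls is no result about the members.

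**Figure D3:**
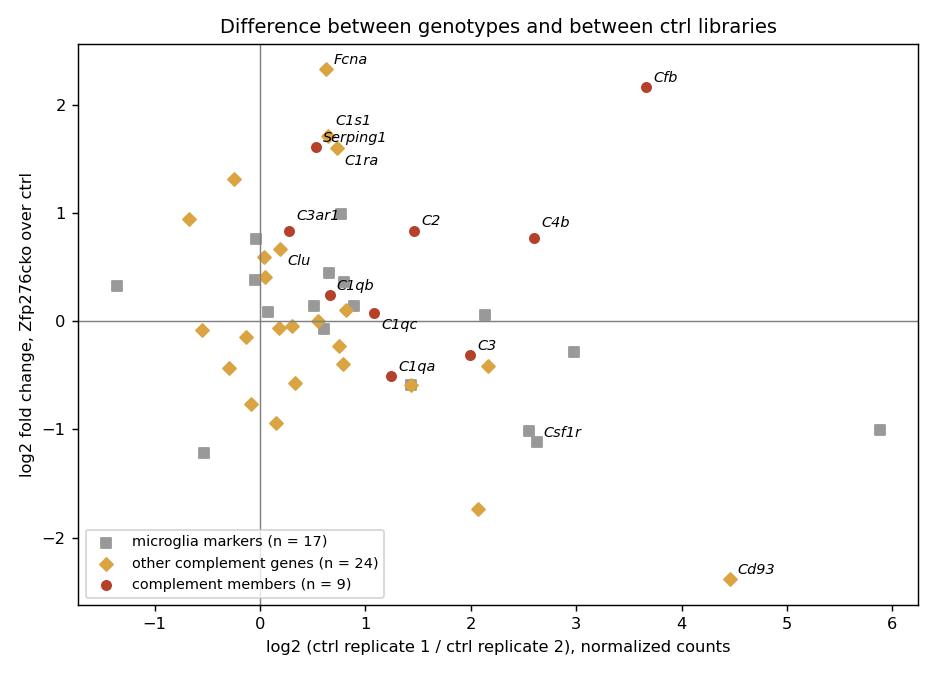
Log2 fold change between genotypes (vertical axis, Zfp276cko over ctrl) against the log2 ratio of the ctrl replicates (horizontal axis, replicate 1 over replicate 2) for the members (red circles), other complement genes (yellow diamonds) and microglia markers (grey squares) with a mean of at least 20 normalized counts. All 9 members lie right of 0, and C3ar1 and Serping1 lie nearest to 0 on the horizontal axis, while Cfb and C4b lie farthest to the right among the members.

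Compared per length, the members differed widely in level. In RPKM (counted reads scaled to exon length and library size), the means over the 4 libraries were 297 for C1qb, 256 for C1qa and 145 for C1qc. C3ar1 followed with a mean RPKM of 66.8, C3 with 39.0 and C4b with 6.62. Serping1, C2 and Cfb had mean RPKM levels of 0.963, 0.418 and 0.315. In this order, the RPKM ranges over libraries overlapped between neighbours except for C1qc and C3ar1, whose nearest values were 90.3 and 86.9, and for C3 and C4b, whose nearest values were 17.4 and 9.20. The members higher in Zfp276cko without overlap were thus the 3 rarest together with C3ar1.

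Of 49 further complement genes, all were in the files, 27 were tested and 25 of these had a mean of at least 20 normalized counts, while 7 had no read. None was called by edgeR's quasi-likelihood test with adjustment. DESeq2 called 5 higher (C1s1, C1ra, Fcna, Masp1 and Clu) and 2 lower (Csmd1 and Csmd3), beside 3.05% and 2.30% of all genes. The unadjusted p of edgeR passed 6 higher and 2 lower, beside 5.11% and 3.02%. Among the 25, both Zfp276cko libraries were above both ctrl libraries for 8, below for 5 and overlapping for 12. Of all genes with a mean of at least 20, 26.4% were above and 24.8% below, so these counts are near the general share. Their median log2 fold change over the tested genes was -0.081.

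In the lectin pathway, which starts complement from sugar patterns, Fcna, a ficolin made by macrophages, had 26.1 and 16.9 normalized counts in ctrl and 109 and 107 in Zfp276cko, without overlap. Its log2 fold change was 2.32 (SE 0.33, adjusted p = 0.123 in edgeR's quasi-likelihood test and 0.000309 in DESeq2). The lectin pathway proteases went in different directions, with 275 and 439 against 691 and 681 for Masp1 (log2 fold change 0.94, SE 0.26) and 170 and 40.5 against 40.7 and 22.3 for Masp2 (log2 fold change -1.73, SE 0.80), where the genotypes overlapped for Masp2. Of the exon bases of Masp2, 54.9% are shared with Tardbp on the opposite strand. The secreted inhibitor clusterin (Clu), which blocks the terminal complex, had 1364 and 1193 normalized counts in ctrl and 2104 and 1958 in Zfp276cko, without overlap (log2 fold change 0.67, SE 0.11, adjusted p = 0.139 in edgeR's quasi-likelihood test and 0.00908 in DESeq2).

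Among receptors, Cd93, once described as a C1q receptor, had 645 and 29.3 normalized counts in ctrl against 67.0 and 61.9 in Zfp276cko, with a log2 fold change of -2.38 (SE 1.39) that became 1.14 without ctrl replicate 1. Of the integrin chains of the complement receptors CR3 and CR4, Itgam had 2154 and 796 in ctrl against 993 and 972 (log2 fold change -0.59, SE 0.49) and overlapped, and 68.7% of its exon bases are also in Gm49368 on the same strand. Itgax had 19.0 and 22.5 in ctrl against 59.7 and 43.8 in Zfp276cko, without overlap (log2 fold change 1.31, SE 0.33). Their adjusted p was 0.482 (Cd93), 0.620 (Itgam) and 0.211 (Itgax) in edgeR's quasi-likelihood test.

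**Figure D4:**
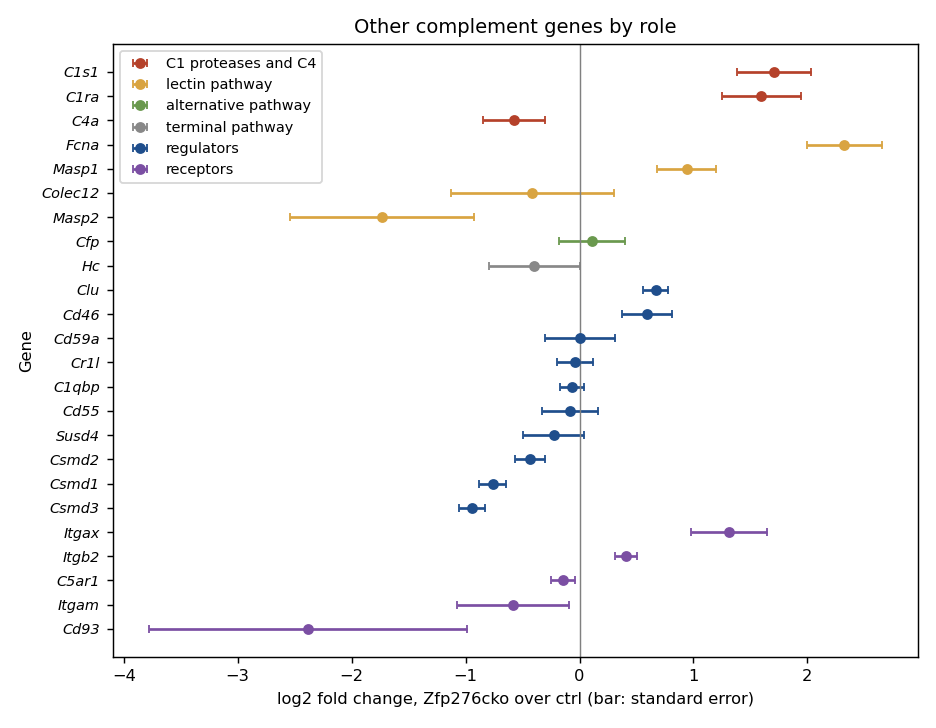
Log2 fold change (Zfp276cko over ctrl, bar: standard error) of other complement genes with a mean of at least 20 normalized counts, grouped by role. The bar of Cd93 is the widest drawn, with a standard error of 1.39, and C1s1, C1ra and Fcna lie farthest to the right.

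Markers of further cell types moved with the ctrl libraries. The 7 fibroblast and mural markers summed to 8043 and 191 normalized counts in ctrl and 262 and 204 in Zfp276cko, with Col1a1 at 2522, 63.0, 74.2 and 49.0 in this order, Col1a2 at 2703, 41.6, 49.8 and 41.2, and Dcn at 224, 12.4, 16.3 and 15.5. The 7 macrophage markers summed to 4801 and 2017 in ctrl and 2930 and 2913 in Zfp276cko. Mrc1 was at 566 and 7.88 in ctrl and 54.3 and 43.8 in Zfp276cko, while Cd163 and Lyve1 were at 15.4 and 4.75 in ctrl replicate 1 and at or below 1.81 elsewhere. Ms4a7, the most abundant of the macrophage list, was at 2696 and 2004 in ctrl and 2820 and 2821 in Zfp276cko. Ctrl replicate 1, the highest library for C1qa, C1qb, C1qc and C3, was thus also the highest for Col1a1, Col1a2, Dcn, Mrc1, Cd163 and Lyve1, but not for Ms4a7. The part of these cells in the members' levels was not tested.

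The 9 astrocyte markers summed to 30607 and 24616 in ctrl and 30492 and 29297 in Zfp276cko, with Gfap at 17641, 8463, 12993 and 12248, Aqp4 at 1838, 3818, 3055 and 3364, Aldh1l1 at 316, 617, 918 and 796, and Gjb6 at 0 throughout. The 4 endothelial markers summed to 232 and 133 in ctrl and 194 and 226 in Zfp276cko, with Pecam1 at 106, 93.4, 153 and 161, Cdh5 at 70.0, 13.5, 18.1 and 28.4, and Cldn5 at 0 throughout. The 12 oligodendroglial markers, which define the labelled cells, summed to 366607 and 478555 in ctrl and 256369 and 260354 in Zfp276cko. Sox10 was at 18135, 20744, 17805 and 18611 and overlapped, whereas Olig1 (31743, 28857, 16810 and 16487) and Olig2 (13537, 12402, 8692 and 8392) were lower in Zfp276cko without overlap. The 18 listed interferon response genes were all higher in Zfp276cko without overlap, with a median of 2.93 on the log2 scale and sums of 16330 and 6606 in ctrl and 106410 and 103519 in Zfp276cko. Whether they have a part in the differences of Serping1, C3ar1, C2 or Cfb was not tested.

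The genes whose pattern over the 4 libraries was most like that of a member were found by the root mean squared difference of centred log2 counts scaled to library size, among genes with a mean of at least 20. For Serping1 they were Gla (0.037), Fblim1 (0.042) and Zc3hav1 (0.042), each higher in Zfp276cko without overlap. For C3 they were Cd34 (0.064), Colec12 (0.069) and Slc14a1 (0.071), with the Zfp276cko libraries between the ctrl libraries. For C1qa they were Mtus1 (0.075), AW046200 (0.080) and Egln3 (0.086), and for C4b they were Trib3 (0.14), Ifitm3 (0.16) and Tnfrsf26 (0.17). These genes were picked for their likeness to the member, so their sharing its split between the libraries follows from the choice. With 4 libraries, likeness of pattern is a description only.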

How the data were processed

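Total RNA of 3ddiff 1° mouse OGC cultures was sequenced (stranded mRNA kit, single-end reads) as 2 ctrl and 2 Zfp276cko libraries. Reads were aligned by the authors with STAR 2.5.4a (genome mm10), who deposited raw read counts per gene symbol, without normalization. The counting program is HTSeq in the methods and featureCounts 1.5.1 in the submitters' processing notes, and the strand setting is not given in the sources used here.

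Genes were kept by filterByExpr (15766 genes, 99.9% of counts), normalized with TMM and compared without covariates by the quasi-likelihood test of edgeR 4.0.16 in R 4.3.3. P-values were adjusted over all tested genes (Benjamini-Hochberg). Genes were called with the study's limits: adjusted p up to 0.05, a change of 0.6 or more on the log2 scale, and at least 20 normalized counts on average. The study used DESeq2, which was an alternative here (version 1.42.0), as were limma 3.58.1 (voom), edgeR's exact test, other normalizations and filters, a replicate block and the omission of each library. The scripts were tested on simulated data. Replicates are separate preparations. Groups at or below 3 counts in every library were treated as at the floor. Counts of 21068322 to 26599809 per library set the counting error, and Cfb, with 1 to 41 reads, is the least precise member. Positions and exon lengths came from GENCODE M21 (mm10) and promoters from RefSeq.

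Named were the 9 members, Zfp276, the 8 other complement genes with the largest change, fixed others (C1ra, C1s1, C4a, Clu and Itgam), the first 3 markers of each cell type list, 3 genes of nearest pattern per member for 4 members, and neighbours within 50 kb. A gene of the list of other complement genes, counted in the totals, and a searched motif are not reported here. Other genes were named after their values were seen. Itgam has 2 entries, of which the first, with nearly all its reads, was used. Members, lists and motifs were chosen with earlier results of these data known.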

Additional observations from a re-analysis of the deposited data

How the results depend on the processing

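With 2 libraries per genotype no exact permutation test can pass, and the spread between the ctrl replicates limits what can be called. The count of called members, 0 in the reported fit, was 2 with DESeq2, 2 with edgeR's exact test and 2 with the unadjusted p, and ranged from 0 to 8 when 1 library was left out. The count of other complement genes called, also 0, was 7 with DESeq2, 6 with the exact test and 8 with the unadjusted p, and ranged from 0 to 13 with 1 library left out. Members without overlap between genotypes numbered 4, and ranged from 3 to 9 with 1 library left out. Without ctrl replicate 1 the 9 members were all above, and without ctrl replicate 2 there were 4 above and 4 below. A single library falls outside a pair more easily than 2 libraries do, and the share of all genes was not computed for 3 libraries. These counts are therefore no result about the members. Other normalizations, other filters and limma voom called 0 in both lists, and Cfb was not tested where at least 10 counts were required in every library.

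With 1 library left out, the log2 fold change ranged from -1.02 to 0.25 for C1qa and from -1.0 to 1.0 for C3, turning positive without ctrl replicate 1. It ranged from -0.067 to 0.61 for C1qb, from -0.38 to 0.72 for C1qc and from -0.026 to 2.59 for C4b, turning negative without ctrl replicate 2. For C3 it was also 0.0031 with limma voom and 0.0021 with the replicate block. Apart from C3, whose other fits are named above, each of these turns followed the omission of 1 ctrl library, and the cause of its difference was not tested. C3ar1, Serping1 and C2 stayed positive in every setting, and Cfb in every setting where it was tested. Over the omitted libraries the log2 fold change ranged from 0.69 to 0.98 for C3ar1 and from 1.35 to 1.89 for Serping1. It ranged from 0.26 to 1.74 for C2 and from 1.25 to 4.79 for Cfb. The adjusted p with limma voom was 0.116 for C3ar1, 0.141 for Serping1, 0.441 for C2 and 0.276 for Cfb.

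The labels number the replicates alike in both genotypes, but same-numbered libraries did not deviate together (r = 0.0085 over 14324 genes). The Zfp276cko replicates hardly deviated, with a median absolute log2 difference of 0.087, so this check cannot tell whether same-numbered preparations were paired. With the replicate block, edgeR called 0 members and 0 other complement genes.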
